A study of Mus musculus with 3 samples.

Results

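Expression of 39 genes of the lysosome and of autophagy was examined in mouse embryonic fibroblasts (MEF) with and without n-butylidenephthalide (BP), a compound found in Angelica sinensis. The genes were chosen by name, with earlier results of these data known. Of them, 22 encode proteins of the lysosome, 15 encode autophagy receptors and machinery, and 2 encode transcription factors of both systems. All 39 were on the array, among 35200 gene names in all, and they were read by 51 of 55681 gene probes.

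MEF are primary cells grown from minced mid-gestation embryos, here of the C57BL/6 strain, after removal of heads, legs and internal organs. The 3 samples were MEF without BP (control), MEF in medium with 10 µg/ml BP (BP10) and MEF in medium with 40 µg/ml BP (BP40). The paper calls the control DMSO, the solvent of BP, whereas its label gives no treatment, and the duration of BP treatment was not given in the sources used here. Cy3-labeled RNA of each sample was read on 1 Agilent array, so there was 1 culture per condition, no replicate spread and no test, and every ratio compares 2 arrays.

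Lysosomes are acidic organelles in which hydrolases break down proteins, lipids and sugar chains, and the acid is made by a proton pump, the V-ATPase. In autophagy, a double membrane built by the ATG proteins encloses cytoplasm marked by receptors such as p62, and then fuses with a lysosome. TFEB and TFE3 are transcription factors that bind a short DNA element called CLEAR in front of many lysosomal genes and are known to activate them during starvation and lysosomal stress.

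All 3 arrays lay on 1 slide. Per the file headers, BP10 and BP40 shared a scan session and the control had its own, so an effect of BP relative to the control cannot be told apart from one of the session. Spots well above background made up between 68.3% and 81.7% of the 59305 gene spots, and no spot was saturated. Signals below are log2 values relative to the 75th percentile of the gene spots of the same array, so that a value of 0 lies at that percentile, and a log2 ratio of 1 is a 2-fold difference. Since signals of different probes depend on their binding, they give no order of transcript levels between genes. As a measure of error without replicates, the SD of a gene's ratio between its 2 probes was taken. Its median over 4781 genes with 2 probes above background on all 3 arrays is called the spread between probes here. It was 0.29 for BP10 against control, 0.22 for BP40 against control and 0.21 for BP40 against BP10. The 95th percentile of the SD was 1.11, 1.06 and 0.75, so the spread is no upper limit of the error. Over 1506 genes with 2 such probes of mean signal above 0, called bright probes here, the median was smaller, at 0.20, 0.13 and 0.16. With bulk RNA, fewer cells of a type and less RNA per cell cannot be told apart.

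All 39 genes were well above background on all 3 arrays, and 36 of them lay above the 75th percentile on each array. Over the probes used, signals ran from that of Tfeb, at -2.84, -2.89 and -1.95 on the control, BP10 and BP40 arrays, to that of Lamp1, an abundant glycoprotein of the lysosomal membrane, at 7.05, 6.92 and 7.33. The remaining 2 genes below the 75th percentile were Npc1, which exports cholesterol from lysosomes, and Nbr1, an autophagy receptor. Because nearly all these genes were bright, they were set beside all genes and beside the 10928 genes whose mean signal over the 3 arrays was above 0, called bright genes here.

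**Figure D1:**
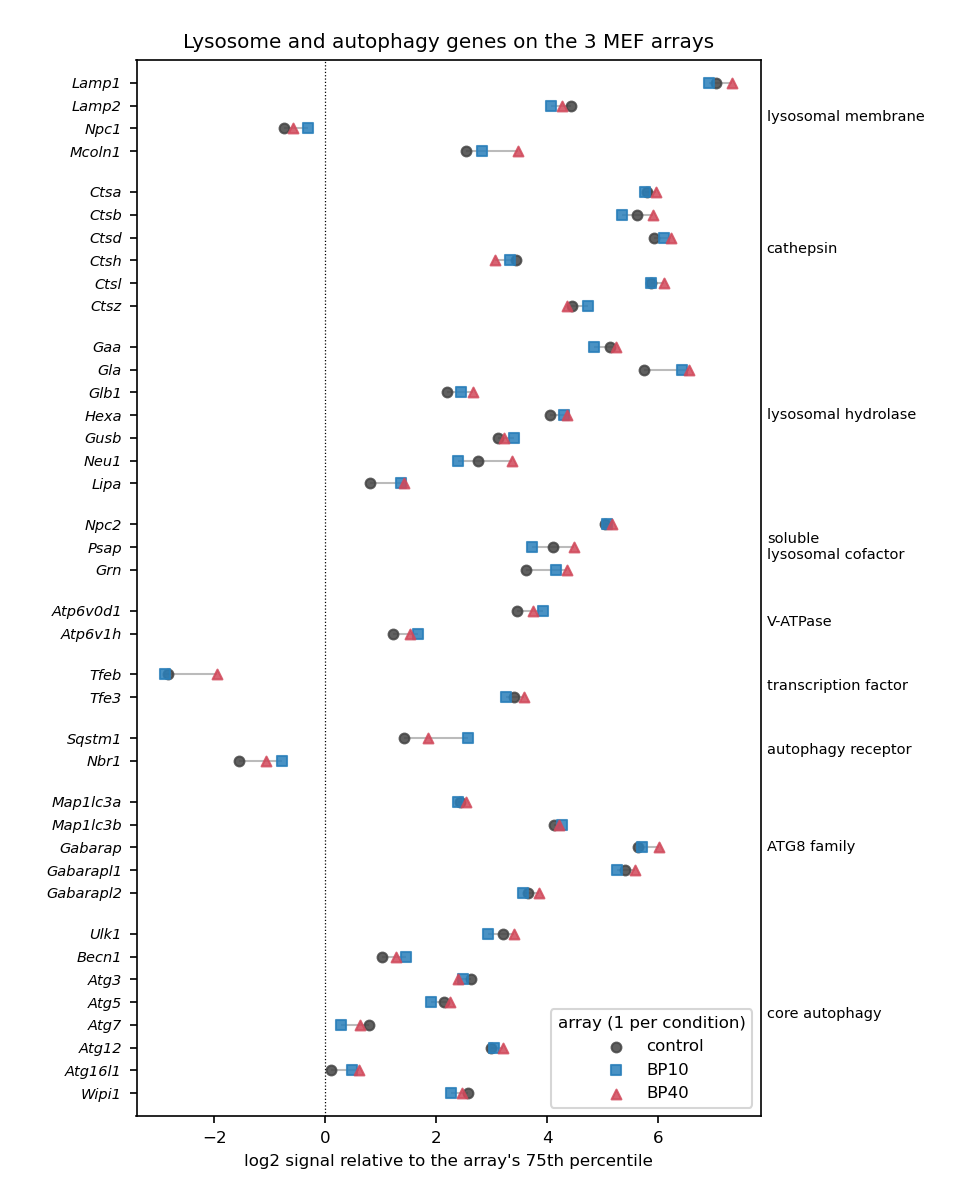
Log2 signal of each of the 39 genes, relative to the 75th percentile of its array (dotted line at 0), on the control (circle), BP10 (square) and BP40 (triangle) arrays, 1 array per condition, with grey lines joining the lowest and highest array. For most genes the 3 arrays lie close together, and the widest gaps belong to Sqstm1 (1.42, 2.57 and 1.86), Neu1 (2.76, 2.40 and 3.36), Mcoln1 (2.53, 2.83 and 3.47) and Tfeb.

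The DNA element that TFEB and TFE3 bind was looked for in front of the genes, since it is the feature their promoters are known to share. Promoter windows of 300 bases, 250 before and 50 after the transcription start, were taken from RefSeq (GRCm38.p6), and 31 of the 39 genes had one. The 8-base core of the CLEAR element, TCACGTGA, was present in the windows of 6 of these 31 genes (19.4%), and in those of 1.12% of the 27025 genes in the table. The E-box inside it, CACGTG, was present for 12 of 31 (38.7%) and for 8.09% of all genes. Both motifs read the same on either strand. Of the 6 genes with the 8-base core, 5 were among 18 lysosomal genes with a window and 1 was among 11 autophagy genes. The stretches around the matches are shown 5′ to 3′ on the strand of the gene, with the 8-base core in capitals, because the core distinguishes these 6 genes from the other 25 members with a window.
Ctsa, chr2:164833734-164833787, plus strand: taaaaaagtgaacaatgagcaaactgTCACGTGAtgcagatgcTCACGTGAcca
Ctsd, chr7:142387893-142387952, minus strand: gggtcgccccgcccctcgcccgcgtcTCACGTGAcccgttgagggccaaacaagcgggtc
Mcoln1, chr8:3500447-3500506, plus strand: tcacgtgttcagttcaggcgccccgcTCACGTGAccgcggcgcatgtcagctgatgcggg
Gla, chrX:134601167-134601255, minus strand: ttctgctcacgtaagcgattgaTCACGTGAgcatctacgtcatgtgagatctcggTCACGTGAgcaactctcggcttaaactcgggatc
Atp6v0d1, chr8:105566050-105566094, minus strand: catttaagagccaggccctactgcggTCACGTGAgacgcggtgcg
Atg3, chr16:45158731-45158790, plus strand: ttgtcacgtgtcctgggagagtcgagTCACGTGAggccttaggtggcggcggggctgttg

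Ctsa and Gla each held 2 copies of the 8-base core. Counted from the start site, the core of Mcoln1 began at base -46, that of Atg3 at -72 and that of Ctsd at -99. Lamp1 held 4 copies of the 6-base E-box between base -61 and its start and none of the longer core. Tfeb, Tfe3, Sqstm1, Neu1, Lipa, Psap and Grn held neither motif in these windows. A match is a stretch of letters and was not tested for binding.

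**Figure D2:**
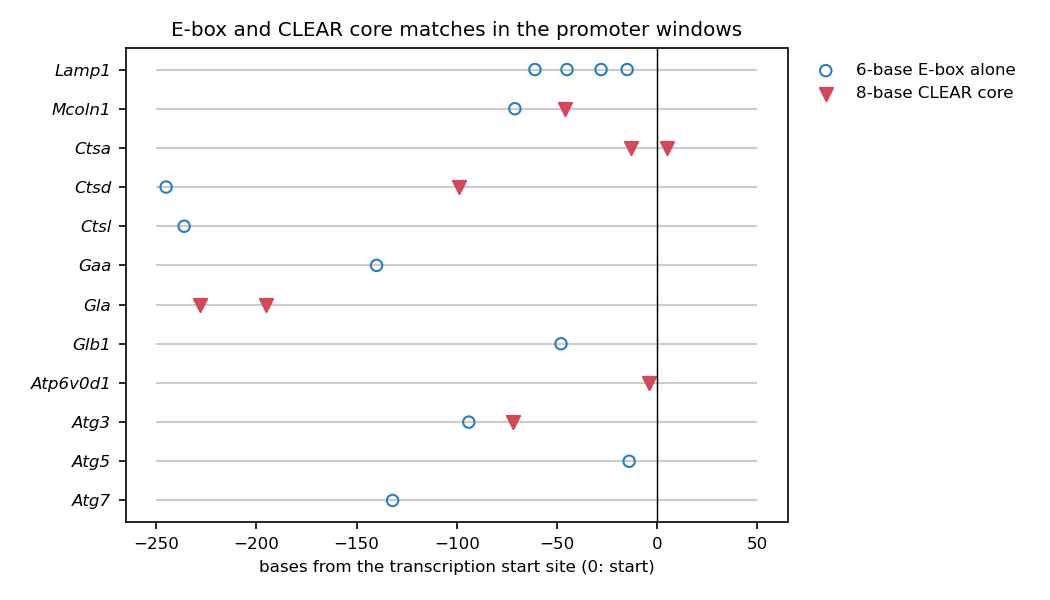
Positions of the 8-base CLEAR core (red triangles) and of the 6-base E-box outside it (blue circles) in the promoter windows of the 12 genes that hold either motif; the x axis gives bases from the transcription start site, and grey lines span the window. Lamp1 has 4 E-boxes before its start, and Ctsa and Gla have 2 copies of the longer core.

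At 10 µg/ml BP, the 2 genes furthest above the control were the autophagy receptors Sqstm1 and Nbr1. Sqstm1 encodes p62, which binds ubiquitinated cargo and is itself degraded by autophagy. Its probe (mm9 chr11:50015985-50016044) gave signals of 1.42, 2.57 and 1.86 on the control, BP10 and BP40 arrays, so BP10 was the highest and BP40 lay between. The BP10 signal was 2.22-fold the control signal (log2 ratio 1.15), and the BP40 signal was 1.35-fold the control signal. Nbr1, a receptor that acts together with p62, gave -1.55, -0.78 and -1.07 in the same order of arrays, 1.70-fold the control on BP10 and 1.40-fold on BP40.

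Sqstm1 was the only one of the 39 genes called higher at 2-fold on BP10 against control, where 2.8% of all genes were called higher, and none was called lower, where 10.3% were. At 1.5-fold, 3 genes were called higher (Sqstm1, Nbr1 and Gla), which is 7.69% of the 39 beside 6.77% of all genes and 3.55% of bright genes. No member was called lower at 1.5-fold, beside 21.8% of all genes and 6.88% of bright genes. The count of higher calls is thus near that of all genes. With the normexp background correction in place of the scanner's own, the log2 ratio of Sqstm1 was 0.76 and fell short of 2-fold.

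At 40 µg/ml BP, the genes furthest above the control encode a lysosomal channel, 3 hydrolases, a granulin precursor and the factor Tfeb. Mcoln1, the calcium channel TRPML1 of the lysosomal membrane, gave signals of 2.53, 2.83 and 3.47 on the control, BP10 and BP40 arrays. This was 1.23-fold the control on BP10 and 1.92-fold on BP40. Gla, the alpha-galactosidase that is deficient in Fabry disease, gave 5.74, 6.43 and 6.56, so that both BP arrays lay above the control by 1.62-fold and 1.76-fold. It was the only gene of the 39 called at 1.5-fold on both BP arrays against the control.

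Neu1, the lysosomal sialidase, gave 2.76, 2.40 and 3.36, below the control on BP10 and 1.51-fold above it on BP40. Lipa, the acid lipase that frees cholesterol from its esters, gave 0.81, 1.36 and 1.41, 1.46-fold and 1.52-fold the control. Grn, the precursor of the lysosomal granulins, gave 3.61, 4.16 and 4.35, 1.46-fold and 1.67-fold the control. For Lipa and Grn both BP arrays lay above the control, and they differed from each other by 0.06 and 0.19 on the log2 scale. Both differences were below the spread between probes (0.21), but that of Grn was above the value for bright probes (0.16). Tfeb was at -2.84 and -2.89 on the control and BP10 arrays and at -1.95 on BP40, which was 1.85-fold the control.

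No member reached 2-fold on BP40 against control in either direction, where 2.75% of all genes were called higher and 10.3% lower. At 1.5-fold, 6 of the 39 (15.4%) were called higher, beside 6.95% of all genes and 5.32% of bright genes. None was called lower, beside 21.5% of all genes and 4.53% of bright genes. Of the 6, 5 were among the 22 lysosomal genes and none was among the 15 autophagy genes. These ratios rest on the scaling: 9 E1A probes, which read control RNA spiked in during labeling, were 0.77 higher on the BP40 array than on the control (median, log2 scale), and centring on them left none of the 39 called higher at 1.5-fold and put 16 of the 39 lower at 1.5-fold. Under that centring the ratio of Mcoln1 to the control was 0.17, that of Gla 0.04 and that of Neu1 -0.17.

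**Figure D3:**
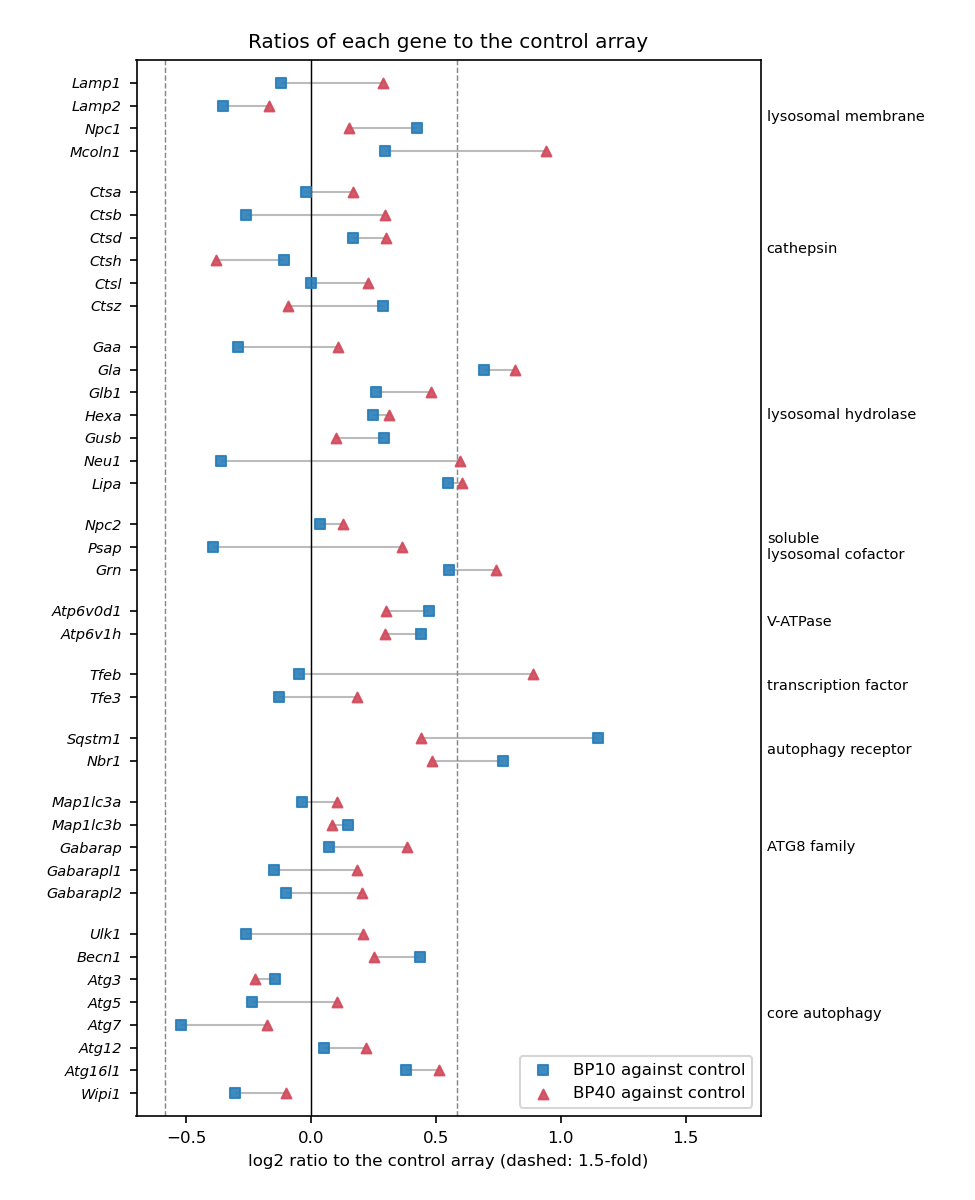
Log2 ratio of each gene to the control array for BP10 (blue square) and BP40 (red triangle), 1 array per condition and the same control array for both, with signals scaled to the 75th percentile; dashed lines mark 1.5-fold. Sqstm1 and Nbr1 lie furthest right on BP10 (1.15 and 0.77) and Mcoln1, Tfeb and Gla on BP40 (0.94, 0.89 and 0.82); under spike-in centring each BP40 point would shift left by 0.77.

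BP40 and BP10, which shared a scan session, differed most at Neu1 and Tfeb. Neu1 was 1.95-fold and Tfeb 1.92-fold higher on BP40 than on BP10. Psap, the precursor of the saposins that help hydrolases reach sphingolipids, gave signals of 4.11, 3.72 and 4.48 on the control, BP10 and BP40 arrays. It was 1.69-fold higher on BP40 than on BP10, with the control between them. Mcoln1 was 1.56-fold higher on BP40. Sqstm1 ran the other way, with 0.61-fold the signal on BP40 that it had on BP10.

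No member reached 2-fold between the doses, where 1.88% of all genes were called higher on BP40 and 2.06% lower. At 1.5-fold, 4 members (10.3%) were called higher (Neu1, Tfeb, Psap and Mcoln1), beside 7.82% of all genes and 7.82% of bright genes. Sqstm1 was the 1 member called lower (2.56%), beside 6.09% of all genes and 2.93% of bright genes. Centring on the spike-in probes shifted every ratio of BP40 to BP10 by -0.91, which put 28 of the 39 lower on BP40 at 1.5-fold and none higher. The ratio of Neu1 was then 0.05, that of Tfeb 0.02, that of Psap -0.16, that of Mcoln1 -0.27 and that of Sqstm1 -1.62. The order of the members was the same, since this shift is equal for all genes.

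No other cathepsin, hydrolase or membrane protein reached 1.5-fold in any comparison with the probe used. The 6 cathepsins, the proteases and carboxypeptidase of the lysosome, had log2 ratios on BP10 from -0.26 (Ctsb) to 0.29 (Ctsz). None differed from the control by more than the spread between probes, as 4231 of 10928 bright genes did. Ctsb and Ctsz did pass the value for bright probes (0.20). On BP40 they ran from -0.38 for Ctsh to 0.30 for Ctsd. Of the 6, 4 lay beyond the spread between probes, 3 above the control and 1 below. So did 5335 of 10928 bright genes and 24958 of all 35200 genes. Between the doses 4 of the 6 cathepsins lay beyond the spread, with Ctsb 0.56 higher on BP40. There, 6246 of 10928 bright genes and 20966 of all 35200 genes did so. Among the 7 hydrolases the median log2 ratio was 0.26 on BP10 and 0.48 on BP40. With the probes used, all 7 lay above the bright-gene median on BP40. For Gaa this depends on the probe, with 0.11 for the one used and -0.79 and 0.97 for its others. Glb1, the lysosomal beta-galactosidase, had ratios of 0.26 and 0.48. Hexa, the hexosaminidase subunit lost in Tay-Sachs disease, had 0.25 and 0.31. Both V-ATPase genes, Atp6v0d1 and Atp6v1h, were higher on BP10 (0.47 and 0.44) than on BP40 (0.30 and 0.30), a difference within the spread between probes. For Atp6v0d1 the ratio of BP40 to BP10 (-0.17) nonetheless passed the value for bright probes (0.16). The median of 15 other V-ATPase subunits was lower on BP10 (0.02) than on BP40 (0.23). Lamp2, the partner of Lamp1 in the membrane, had -0.35 and -0.17, Npc1 had 0.42 and 0.15, and Npc2, its soluble partner, had 0.03 and 0.13.

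In the autophagy machinery, no gene reached 1.5-fold in any of the 3 comparisons with the probe used. A second, dimmer probe did so for Atg7 on BP10 against control (0.71) and for Atg12 on BP40 against BP10 (0.70). The 5 genes of the ATG8 family, whose proteins are attached to the growing membrane, had log2 ratios between -0.15 and 0.15 on BP10 and between 0.08 and 0.38 on BP40. Gabarap was at the top of this range on BP40, with signals of 5.64, 5.71 and 6.02 on the control, BP10 and BP40 arrays. The 8 core genes ran from -0.52 (Atg7) to 0.44 (Becn1) on BP10 and from -0.22 (Atg3) to 0.51 (Atg16l1) on BP40. Ulk1, the kinase that starts autophagy, had ratios of -0.26 and 0.21, and it was 0.47 higher on BP40 than on BP10. Becn1, a subunit of the lipid kinase that follows it, had 0.44 and 0.25. Atg5, Atg12 and Atg16l1, which form the complex that attaches the ATG8 proteins, had ratios of -0.24, 0.05 and 0.38 on BP10, with opposite signs. On BP40 the same genes had 0.10, 0.22 and 0.51, all above the control. Wipi1, a phospholipid-binding protein of the early membrane, had -0.30 and -0.10.

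As a class, lysosomal genes lay above bright genes on both BP arrays, and autophagy genes were close to bright genes on BP10 and between both on BP40. On BP10 against control the median log2 ratio was 0.21 for the 22 lysosomal genes, -0.04 for the 15 autophagy genes and -0.10 for bright genes, with -0.23 for all genes. On BP40 against control the medians were 0.30, 0.20, 0.06 and -0.11. On BP40 against BP10 they were 0.16, 0.17, 0.16 and 0.06. Of the 22 lysosomal genes, 15 lay above the bright-gene median on BP10 and 19 did so on BP40, and of the 15 autophagy genes 8 and 12 did so.

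The lysosomal median exceeded the autophagy median by 0.24 on BP10 against control and by 0.09 on BP40 against control. On BP10 the difference was 0.11 with normexp, 0.29 with quantile normalization and 0.31 with cyclic loess. On BP40 it was 0.13, 0.12 and 0.09. These differences are descriptions of single arrays, and their error could not be estimated. For the 13 cathepsins and hydrolases alone the difference was 0.20 and 0.10. Between the doses the class medians differed by -0.01. A scaling that shifts a whole array cannot move these differences or the distance from the bright-gene median, although centring on spike-in probes turned the lysosomal median of BP40 against control to -0.48 and that of bright genes to -0.71. The array with the highest signal was BP40 for 25 of the 39 genes (64.1%), BP10 for 9 and the control for 5. For bright genes it was BP40 in 47.2%. Unlike the class differences, these counts and shares depend on how the arrays are scaled. With spike-in centring, 16 of the 39 genes were lower on BP40 than on the control at 1.5-fold and none was higher. Against BP10, 28 were lower on BP40 and none was higher.

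**Figure D4:**
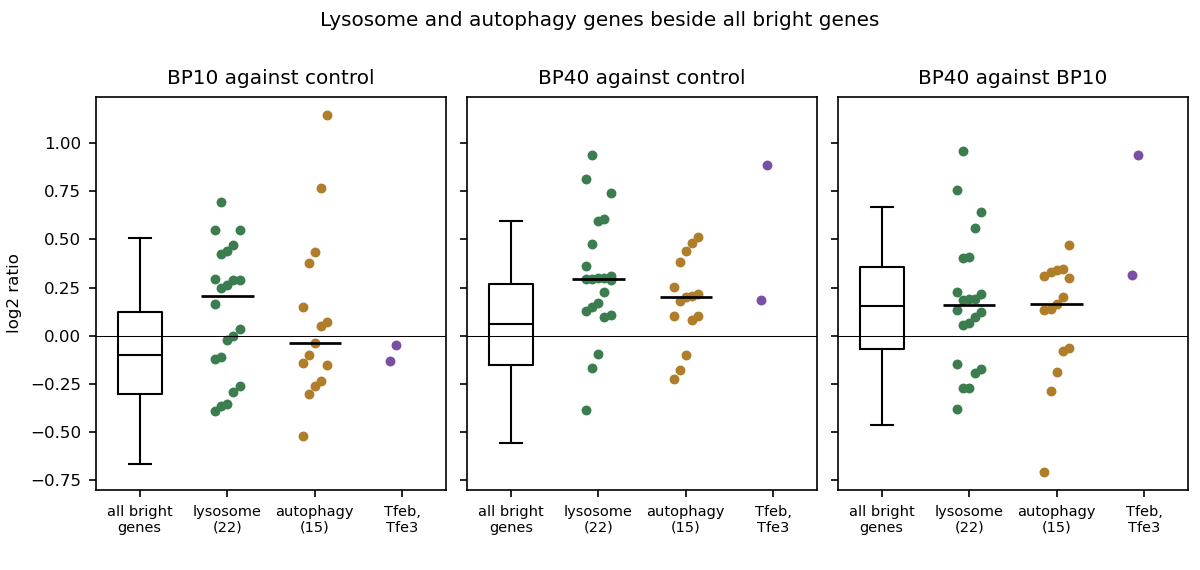
Log2 ratios in the 3 comparisons, 1 array per condition: boxes show the median and quartiles of the 10928 bright genes with whiskers at their 5th and 95th percentiles, points show single genes, and black bars the medians of the 22 lysosomal and 15 autophagy genes. The lysosomal median lies 0.30 and 0.24 above that of bright genes against the control on BP10 and BP40, and 0.01 above it on BP40 against BP10.

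Probes of the same gene often gave different ratios. Of the 39 genes, 29 had 1 probe, 8 had 2 and 2 had 3. None of the genes called above at 1.5-fold had a second probe, so their ratios could not be checked in this way. Among the 10 genes with several probes, every other probe had the same sign as the one used for 4 genes on BP10 against control, for 4 on BP40 against control and for 2 between the doses. The probes of Ctsd, Gaa and Atg7 ranged over more than 1 on the log2 scale.

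Ctsd, the main aspartic protease of lysosomes, gave 5.93, 6.10 and 6.23 with the probe used and 1.40, 2.81 and 2.30 with a second probe 4885 bases away (mm9). The second probe put BP10 1.41 and BP40 0.90 above the control on the log2 scale, where the first gave 0.17 and 0.30. For Gaa, the acid alpha-glucosidase lost in Pompe disease, the probe used gave ratios of -0.29 and 0.11. Its 2 dimmer probes disagreed with it and with each other, at -0.88 and -0.79 for one and 1.65 and 0.97 for the other. Atg7, the E1-like enzyme of ATG8 conjugation, had ratios of -0.52 and -0.18 with the probe used and 0.71 and 0.42 with a dimmer probe. Lamp2 had -0.35 and -0.17 with one probe and 0.34 and 0.32 with the other, and no direction can be given for it, nor for Gaa and Atg7. The sign on at least 1 BP array also differed between probes for Ctsa, Atg12, Gusb, Tfe3 and Wipi1. The 3 probes of Gabarap agreed within 0.12 on BP10 and 0.38 on BP40.

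**Figure D5:**
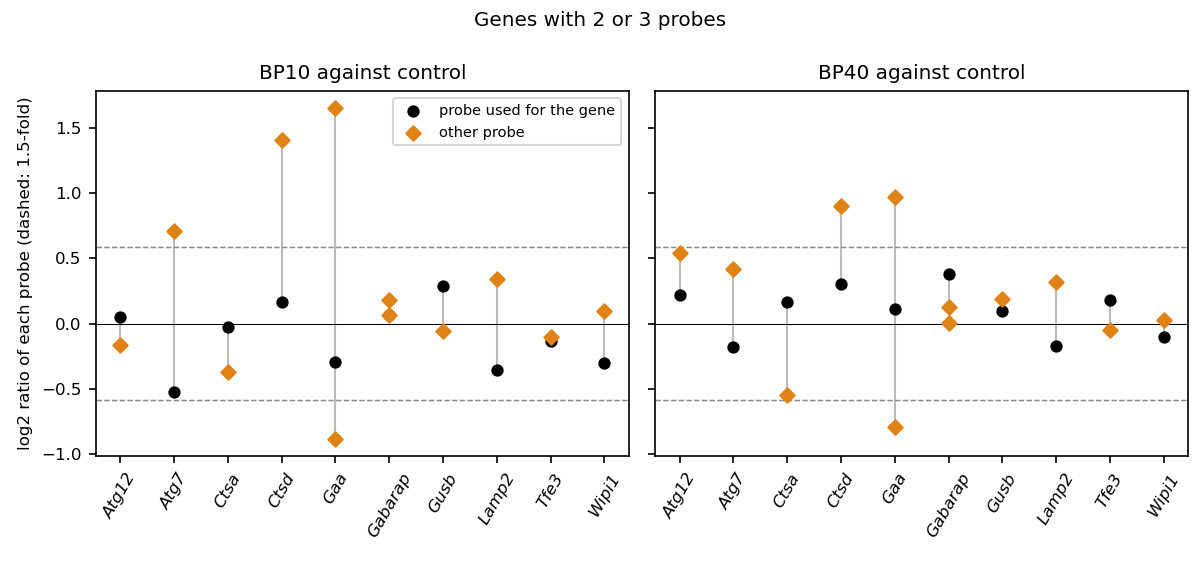
Log2 ratio to the control of every probe of the 10 genes with 2 or 3 probes, for BP10 (left) and BP40 (right), 1 array per condition; black circles are the probes used for the genes, orange diamonds their other probes, and dashed lines mark 1.5-fold. The probes of Gaa span 2.54 on BP10 and those of Gabarap 0.12.

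The probes of Gusb and Map1lc3b were each printed on 10 spots. Gusb, the beta-glucuronidase of lysosomes, gave 3.12 ± 0.06 (SD, n = 9 spots) on the control array, 3.41 ± 0.04 (n = 9) on BP10 and 3.21 ± 0.09 (n = 10) on BP40. Map1lc3b, the gene of LC3B, gave 4.13 ± 0.05, 4.27 ± 0.04 and 4.21 ± 0.06 (SD, n = 10 spots each). The spots of Gusb on the control and BP10 arrays did not overlap, yet its second probe gave a ratio of -0.05 for that pair where the first gave 0.29. These SDs cover spots of 1 array and say nothing of the spread between cultures.

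The genes with the 8-base CLEAR core were spread over the range of ratios. Their median log2 ratio was 0.23 on BP10 against control and 0.30 on BP40 against control, beside -0.05 and 0.21 for the 25 members with a window that lacked the core. Gla and Mcoln1 were the highest of the 6 on BP40 (0.82 and 0.94) and Atg3 the lowest (-0.22), with Ctsa, Ctsd and Atp6v0d1 between (0.17, 0.30 and 0.30). Neu1, Lipa, Grn and Tfeb, the other 4 genes past 1.5-fold on BP40 against control, lacked both motifs in their windows. Between the doses the medians were 0.13 with and 0.23 without the core.

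Other genes of the 2 pathways were read from 9 lists written for this comparison, of which 143 of 144 genes were on the array. Of these, 138 were above background on all 3 arrays. At 1.5-fold on BP10 against control, 10 (6.99%) were higher, beside 6.77% of all genes and 3.55% of bright genes. On the same arrays 8 (5.59%) were lower, beside 21.8% and 6.88%. On BP40 against control 14 (9.79%) were higher, beside 6.95% of all genes and 5.32% of bright genes, and 7 (4.90%) were lower, beside 21.5% and 4.53%. Between the doses 14 (9.79%) were higher on BP40, beside 7.82% of all genes and 7.82% of bright genes, and 10 (6.99%) were lower, beside 6.09% and 2.93%. On BP10 against control the further genes did not repeat the order of the members, whose lysosomal median lay above the autophagy median. The median log2 ratio was 0.16 for 26 further core autophagy genes and 0.25 for 11 further receptors, beside -0.19 for 11 further lysosomal proteases, 0.00 for 18 glycosidases and sulfatases, 0.07 for 7 lipid and phosphate enzymes and 0.06 for 21 membrane proteins and transporters. On BP40 against control the core autophagy genes had 0.30 and the receptors 0.28, and these 4 lysosomal lists had -0.06, 0.29, 0.06 and 0.28. The lists of V-ATPase subunits, lysosomal sorting and mTORC1 and TFEB control had 0.02, -0.03 and -0.21 on BP10. On BP40 they had 0.23, 0.01 and 0.05.

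Among the further lysosomal membrane proteins and transporters, 2 of 21 were above 2-fold at both doses. Of all genes, 2.8% were higher at 2-fold on BP10 and 2.75% on BP40. At 1.5-fold on BP40 against control, 5 of the 21 (23.8%) were higher and 2 (9.52%) lower, beside 6.95% and 21.5% of all genes. Slc17a5, the sialic acid exporter, gave signals of 2.79, 4.67 and 3.97 on the control, BP10 and BP40 arrays, with log2 ratios of 1.88 and 1.18 to the control, although its second, dimmer probe gave 0.37 and 0.03. Tpcn2, a cation channel of the lysosomal membrane, had ratios of 1.21 and 1.11, and Abcb9, a peptide transporter, 0.61 and 0.69. Ppt2, a lysosomal thioesterase, had 0.80 and 0.87. In the opposite direction, the proteases Ctsc and Ctso had ratios of -0.95 and -0.81 on BP10 and of -1.47 and -1.47 on BP40, and the second probe of Ctsc gave -1.11 and -1.49. These 2 were the only ones of 11 further proteases (18.2%) called lower than the control at 1.5-fold, beside 21.8% of all genes on BP10 and 21.5% on BP40. Sort1, a sorting receptor, had -0.76 and -0.65, but its 2 other probes gave 0.92 and 0.08 on BP40. Of the further autophagy genes, Atg9a, the membrane protein of autophagic vesicles, had 0.79 and 0.72, and Optn, an autophagy receptor, 0.60 and 0.69. Tfec, a relative of Tfeb, was above background on the control array alone and was at least 1.71-fold lower on BP10 and at least 2.15-fold lower on BP40.

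Between the doses, 5 of the 143 further genes differed by 2-fold, all higher on BP40. Of all genes, 1.88% were higher on BP40 at 2-fold and 2.06% lower. Bnip3, a mitophagy receptor known to be induced by hypoxia, gave signals of 5.06, 3.44 and 5.97 on the control, BP10 and BP40 arrays, a log2 ratio of 2.53 between the doses, and its other probes gave 1.96 and 2.51. Ddit4 and Sesn3, which both restrain mTORC1, were lower on BP10 and higher on BP40 than the control, with 1.25 and 1.08 between the doses. Atp6v0e2, a V-ATPase subunit, had 1.04. Ctse, an aspartic cathepsin, was above background on BP40 alone and was at least 3.68-fold higher there than on BP10.

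Since macrophages are rich in lysosomal transcripts, cell type markers were read beside these results. All 14 fibroblast markers were above background on all 3 arrays, and none was higher than the control at 1.5-fold. On BP10, 6 (42.9%) were lower, beside 21.8% of all genes and 6.88% of bright genes, and on BP40 8 (57.1%) were lower, beside 21.5% and 4.53%. Of 15 macrophage markers, all 15 were above background on all 3 arrays as well. The log2 of their summed signals was 5.54 on the control, 5.33 on BP10 and 5.58 on BP40. At 1.5-fold on BP10 against control, 3 (20%) were higher, beside 6.77% of all genes, and 2 (13.3%) were lower, beside 21.8%. On BP40 2 (13.3%) were higher, beside 6.95% of all genes, and 3 (20%) were lower, beside 21.5%. Lyz2, the lysozyme of macrophages, gave signals of -0.58, 0.52 and 0.68 on the control, BP10 and BP40 arrays, while Itgam, an integrin of myeloid cells, gave 4.52, 4.08 and 4.10. Itgam was the brightest of the 15 on each array and weighed most in their summed signal. Of 9 epithelial markers, 7 were above background on all 3 arrays. The log2 of the summed signal of all 9 was 2.11, 1.93 and 1.49 on the control, BP10 and BP40 arrays. The defining genes Epcam and Cdh1 were not well above background on any array. Of 8 endothelial markers, 5 were above background on all 3 arrays, while Cdh5, Tie1 and Esam were not well above background on any. The log2 of the summed signal of all 8 was 3.09, 2.77 and 3.12 in the same order of arrays. The part of RNA from these cell types in the lysosomal ratios was not tested.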

How the data were processed

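Per the file headers, the authors deposited the scanner output of 3 single-color Agilent arrays, made with Feature Extraction 10.5.1.1. That software had corrected the intensity of each spot for background, with no scaling from array to array. The values deposited with the series matched these for 100% of spots within a relative tolerance of 0.0001, and 0 columns were left unmapped. The authors' comparison used GeneSpring GX, with no normalization or threshold stated in the sources used here.

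Log2 of the intensity was taken, and the 75th percentile of gene spots not marked as outliers was subtracted on each array. Spots of 1 probe were averaged. Probes were named by the RefSeq symbol of their accession (47.5% of 55681) and otherwise by the deposited name. Where a gene had several probes, those detected above background on more arrays took precedence, and among them the brightest. Calls needed a log2 ratio of 1 (2-fold), or 1.5-fold where stated, and detection on either array of the pair. With detection on only 1, the fold is a lower bound against the higher of the dim signal and the detection floor of that array. There was no test, since each condition had 1 array. The number of arrays limits the precision.

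Named genes are all 39 members, and those genes of the other lists that were called at 1.5-fold in the same direction at both doses or at 2-fold between the doses, up to 8 per list. The members, the lists and the alternatives were chosen with earlier results of these data known. Alternatives were other filters and thresholds, quantile and cyclic loess normalization, other centrings, normexp with an offset of 50 and the median of all probes. Python 3.11.15, pandas 2.3.3 and numpy 2.4.6 were used, with limma 3.58.1 in R 4.3.3. Calling was first tested on simulated data with known changes.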

Additional observations from a re-analysis of the deposited data

Results flagged for a closer look

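Neu1 and Psap lay on opposite sides of the control on the BP10 and BP40 arrays, each by more than the spread between probes of 1 gene. The log2 ratio of Neu1 to the control was -0.36 on BP10 and 0.60 on BP40, a difference of 0.96 between the doses. That of Psap was -0.39 and 0.36, a difference of 0.76. Centring on the E1A spike-in probes turned the BP40 ratios to -0.17 for Neu1 and -0.41 for Psap, so that both lay below the control on both arrays. The differences between the doses were not tested, since each dose had 1 array and both were compared with the same control array.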

How the results depend on the processing

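No paired analysis was possible because only 1 array was made for each condition. Of 141 values for class medians and counts of called members under the alternatives, 128 stayed within tolerance. Many of the 128 could not move. Dropping the filter on dim probes and requiring detection on both arrays gave 15 values each, and every member was above background on all arrays. The values deposited with the series gave another 15 and equalled the scanner output. A shift of a whole array cannot move the differences between class medians. Within tolerance, the lysosomal median of BP40 against BP10 still went from 0.16 to -0.05 with quantile normalization. Centring on the E1A spike-in probes moved the lysosomal median to -0.48 and the autophagy median to -0.57 for BP40 against control, and to -0.75 and -0.75 for BP40 against BP10. It called 1 member lower at 2-fold on BP40 against control and 9 on BP40 against BP10; the cause was not tested. At 1.5-fold, 3 members were higher on BP10 against control, 6 on BP40 against control and 4 on BP40 against BP10, where 1 was lower. Normexp left 0 members called higher at 2-fold on BP10 against control. Quantile normalization and cyclic loess each called 1 member, Tfeb, higher on BP40 against control. These scalings shifted the median of all genes by between 0.10 and 0.18 against the control. The share of higher among all genes called at 2-fold on BP10 against control was 21.4% in the main setting, 50.2% with quantile normalization, 60.1% with cyclic loess, 33.5% with spike-in centring and 32.8% with normexp. Of 819 ratios of single members, 113 moved beyond the tolerance, 78 of them with spike-in centring. The 117 ratios from the values deposited with the series could not move. The only ratio called at 2-fold, that of Sqstm1 on BP10 against control, kept its sign. With spike-in centring, the BP40 ratios to the control of Neu1, Lipa and Grn turned to -0.17, -0.17 and -0.03. Those of Psap and Mcoln1 between the doses turned to -0.16 and -0.27. The 1.5-fold calls of Neu1, Lipa and Grn on BP40 against control, and of Mcoln1 between the doses, were lost under at least 1 other scaling or background correction. Signals on 1 array per condition do not show the spread between cultures.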
